A study of Mus musculus with 10 samples.

Results

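The 10 genes for receptor tyrosine kinases followed here through m6A maps of differentiating 3T3-L1 cells were Pdgfra, Pdgfrb, Fgfr1, Egfr, Igf1r, Insr, Met, Axl, Ddr2 and Ephb4. A peak was assigned to a gene when it lay in the gene's exons on the gene's strand in the mm10 genome. Of the 10 genes, 8 had at least 1 listed peak and 2, Egfr and Ephb4, had none. Together the 8 genes held 77 of the 13965 peaks in the 4 distinct lists.

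3T3-L1 is a clonal mouse preadipocyte line that forms fat cells after hormonal induction. N6-methyladenosine (m6A) was mapped by MeRIP-seq, in which an antibody enriches methylated RNA fragments (IP) for comparison with total fragments (input). DMSO-treated cells were collected at day 0 as preadipocytes (DMSO Pre), at day 3 during mitotic clonal expansion (DMSO MCE) and at day 10 of differentiation (DMSO Diff), and cells given 20 µM rhein from day 0 to day 3 were collected at day 3 (Rhein MCE) and day 10 (Rhein Diff). Rhein is an anthraquinone of rhubarb that has been described as an inhibitor of the m6A demethylase FTO. Below, day 0, day 3 and day 10 stand for the DMSO lists, and after rhein for Rhein MCE. Every condition had 1 IP and 1 input library, so no p-value was possible and differences between lists could not be set against replicate error.

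The deposited lists held 2824 peaks for DMSO Pre, 5128 for DMSO MCE, 2944 for DMSO Diff, 3069 for Rhein MCE and 3071 for Rhein Diff. The sequencing depth behind them is unknown. Each peak carried 1 deposited value, headed as a log2 fold change. It was read as a score on the minus log2 scale of adjusted p-values, which is an assumption that no label states. The score serves here to rank peaks within a list (rank 1 is the strongest). Scores of different lists are set side by side with their ranks, not as a measure of change. The rhein lists shared 3067 identical spans, and all 9 receptor peaks of Rhein MCE recurred at the same coordinates in Rhein Diff with scores that differed by at most 0.0209. They were therefore counted as 1 sample, shown by Rhein MCE, and comparisons with rhein at the MCE and Diff stages are not independent of each other. Whether this common list stems from day 3 or day 10 cells cannot be told apart, so either comparison may set rhein cells of 1 day against DMSO cells of another. Of 9 adipocyte markers, including Pparg, Fabp4 and Adipoq, 0 had a peak in any list, DMSO Diff among them. Of 9 markers of preadipocytes and fibroblasts, 8 had a peak in at least 1 list and 1, Dlk1, had none. Pdgfra, itself 1 of the 10 receptors, was among the 8. Over all protein-coding genes, 3724 of 21951 had a peak in at least 1 of the 4 distinct lists. The markers Ptprc of blood cells, Pecam1 of endothelium and Epcam of epithelium had 0 peaks. A peak list gives no RNA level, so a gene without a peak may lack methylation or may lack reads, and these cannot be told apart here.

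Receptor tyrosine kinases bind growth factors or matrix outside the cell and phosphorylate tyrosines inside it, which recruits adaptors and switches on the RAS-MAPK and PI3K-AKT pathways. In preadipocytes the PDGF receptors are linked to proliferation and the uncommitted state, while the insulin and IGF1 receptors carry the adipogenic signal. m6A is deposited on nuclear transcripts by a METTL3-containing methyltransferase, mostly at the consensus known as DRACH, of which GGAC is the best-known core. The mark is recognised by reader proteins that act on mRNA decay and translation.

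As shares of all listed peaks, receptor peaks were more frequent in DMSO Pre and DMSO Diff than in DMSO MCE and Rhein MCE. DMSO Pre held 26 receptor peaks, 0.921% of its list (95% Wilson interval 0.629% to 1.35%), and DMSO Diff held 24, or 0.815% (0.548% to 1.21%). DMSO MCE held 18, or 0.351% (0.222% to 0.554%), although it was the longest list. Rhein MCE held 9, or 0.293% (0.154% to 0.556%). These intervals cover counting error only and take peaks as independent, which peaks of the same mRNA are not. Without Met, the counts were 16 for DMSO Pre (0.567% of the list), 15 for DMSO MCE (0.293%), 15 for DMSO Diff (0.510%) and 9 for Rhein MCE (0.293%), so the shares of DMSO MCE and Rhein MCE were alike. When each list was cut to its 2824 highest-scored peaks, the counts were 26 for DMSO Pre, 8 for DMSO MCE, 22 for DMSO Diff and 8 for Rhein MCE. The order did not hold for high scores. At a score above 16.6, which is an adjusted p-value below 1e-5 on the assumed scale, receptor peaks were 9 of 299 peaks at day 0. They were 2 of 303 at day 3, 0 of 316 at day 10 and 3 of 426 after rhein.

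**Figure D1:**
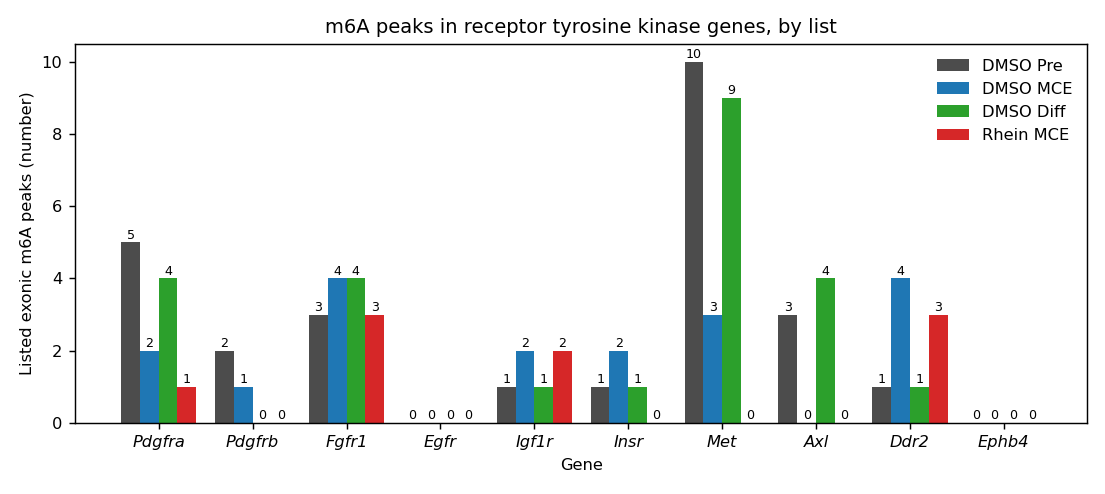
Number of listed exonic m6A peaks (y axis) in each of the 10 receptor genes (x axis), with 1 bar per peak list and 1 IP and input pair per list. Met had 10 peaks in DMSO Pre and 9 in DMSO Diff but 0 in Rhein MCE, whereas Fgfr1 had 3 or 4 in every list.

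A peak was present in 8 of the 10 genes in DMSO Pre, where 7.03% of all protein-coding genes had one. The count was 7 of 10 in DMSO MCE against 12.7% of protein-coding genes, 7 of 10 in DMSO Diff against 6.87%, and 4 of 10 in Rhein MCE against 7.62% (7.63% in Rhein Diff). All protein-coding genes include those that the cells do not express. The 10 receptors were chosen as genes of this cell type, with earlier results of these data known. These shares and those that follow are therefore a scale and not a test. Among the 3724 protein-coding genes with a peak in at least 1 of the 4 distinct lists, a peak at day 0 was found for 41.5%, at day 3 for 75.1%, at day 10 for 40.5% and after rhein for 44.9%. Of the 8 receptor genes with any peak, 8, 7, 7 and 4 had one in the same order. Pdgfra, Fgfr1, Igf1r and Ddr2 had a peak in all 4 lists, that is 4 of 8, while 15.5% of the 3724 genes did.

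Pdgfra had the highest-scored peak of the 10 genes. It encodes the receptor for PDGF-A and PDGF-C that marks adipose progenitors (chromosome 5, 75152292 to 75198215, plus strand). It had 5 peaks at day 0, 2 at day 3 and 4 at day 10 under DMSO, and 1 after rhein. Its strongest peak lay in the coding sequence in DMSO Pre, within exon 15 of 23, and ranked 3 of 2824 with a score of 144. It covered codons 670 to 695 of 1089, in the part of the mRNA that encodes the intracellular kinase domain. No other list had a peak at these bases. The closest was a peak of 75 exonic bases in DMSO Diff over codons 712 to 736, which crossed from exon 15 to exon 16 and ranked 2003 of 2944. The 75 bases of the DMSO Pre peak are shown because they are the best-ranked receptor peak of the series. Here and below, sequences run 5′ to 3′ on the transcript strand of GRCm38 (mm10), and capitals mark GGAC, which this peak did not contain.
Pdgfra coding peak, chr5:75181528-75181602, plus strand: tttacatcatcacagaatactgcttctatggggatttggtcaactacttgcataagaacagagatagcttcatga

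The other main Pdgfra site lay at and just past the stop codon and was present in all 4 lists. The DMSO Pre peak covered 700 bases with a score of 4.82 (rank 2580 of 2824), and the DMSO MCE peak covered 325 bases with a score of 71.1 (rank 21 of 5128). That of DMSO Diff covered 1200 exonic bases over exons 21 to 23 with a score of 6.97 (rank 2009 of 2944), and that of Rhein MCE 350 bases with a score of 10.3 (rank 885 of 3069). The site was thus near the top of the DMSO MCE list and in the lower part of the DMSO Pre and DMSO Diff lists. All 4 peaks covered the same 325 bases, which held 2 GGAC motifs.
Pdgfra 3′ UTR, chr5:75195178-75195206, plus strand: aagttgagaagaGGACttgggtgatgtgg
Pdgfra 3′ UTR, chr5:75195331-75195359, plus strand: ttggaaatggatGGACaagagagtgactg

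The remaining Pdgfra peaks were scattered along the mRNA. In DMSO Pre, 2 peaks of 75 bases followed in the 3′ UTR at ranks 797 and 282 of 2824. In DMSO Diff, a peak of 125 bases lay 2987 bases past the stop codon at rank 654 of 2944. At the 5′ end, DMSO Pre had a peak of 75 bases that began at the first base of the gene (rank 1343), DMSO Diff had one with the same start (rank 1245), and DMSO MCE had a peak at bases 96 to 270 of the principal transcript (rank 1650 of 5128). No 5′ peak was listed after rhein.

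Pdgfrb encodes the receptor for PDGF-B, which is typical of pericytes and fibroblasts (chromosome 18, 61045150 to 61085061, plus strand). Its peaks were confined to the 3′ UTR and to DMSO Pre and DMSO MCE. DMSO Pre had a peak of 300 bases, from 61084509 to 61084808, with a score of 18.99 (rank 235 of 2824) and a peak of 50 bases with a score of 4.67 (rank 2649). DMSO MCE had a peak of 225 bases inside the larger one, with a score of 7.06 (rank 2751 of 5128). DMSO Diff and Rhein MCE had 0 peaks in this gene.

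Fgfr1, the main FGF receptor of fibroblasts, kept a similar number of peaks in every list (chromosome 8, 25513654 to 25575718, plus strand). There were 3 peaks at day 0, 4 at day 3, 4 at day 10 and 3 after rhein, of which 6 lay in the 5′ UTR, 8 had their midpoint in the 3′ UTR and 0 in the coding sequence. The 5′ UTR site ranked 1337 of 2824 at day 0, 194 of 5128 at day 3 and 2105 of 2944 at day 10 under DMSO, and 71 of 3069 after rhein. Its score was 8.07, 21.2, 6.75 and 53.4 in that order.

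The 5′ UTR site of Fgfr1 was highest in rank after rhein, where the peak extended to the first base of the transcript and a separate peak at bases 251 to 325 ranked 248 of 3069. The DMSO Pre and DMSO Diff peaks had identical spans, bases 51 to 300. The 150 bases common to all 4 lists held 3 GGAC motifs, a pair of them separated by 1 base.
Fgfr1 5′ UTR, chr8:25518881-25518909, plus strand: gctgcgtgcagaGGACccgggctgcgcag
Fgfr1 5′ UTR, chr8:25518919-25518947, plus strand: gccgagacgtccGGACtGGACtgagactg

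At the 3′ end of Fgfr1 the order was different. A site whose midpoints lay 609 to 684 bases past the stop codon was in all 4 lists, at rank 538 of 2824 at day 0, 419 of 5128 at day 3, 1819 of 2944 at day 10 and 2130 of 3069 after rhein. None of its 4 peaks held GGAC. A second site, over the stop codon from 25573831 to 25574030 in DMSO Pre and DMSO MCE and shortened to its last 75 bases in DMSO Diff, ranked 240, 3868 and 2564 and was not listed after rhein. The bases common to these 3 lists held 1 GGAC.
Fgfr1 3′ UTR, chr8:25573980-25574008, plus strand: aatccccttgttGGACacactgcctttct

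Egfr, the receptor for EGF and related ligands on chromosome 11, had 0 exonic peaks in all 5 lists. Its symbol did appear in every list except DMSO Pre, always for the same span, 16732605 to 16732704 on the minus strand. That span belongs to the small nuclear RNA gene Gm25698 and ends 19498 bases before Egfr, so it was not counted.

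The receptors of the insulin family differed. Igf1r, the receptor for IGF1, had a peak in the distal 3′ UTR in every list, 5373 to 5398 bases past the stop codon (chromosome 7, 67952827 to 68233668, plus strand). Its score was 7.47 at day 0 (rank 1522 of 2824), 13.5 at day 3 (rank 502 of 5128) and 5.98 at day 10 under DMSO (rank 2441 of 2944), and 6.92 after rhein (rank 2154 of 3069). The span was identical in DMSO Pre and DMSO MCE, at 250 bases. It was the only Igf1r site in DMSO Pre and DMSO Diff. The 125 bases common to the 4 lists held 2 GGAC motifs.
Igf1r 3′ UTR, chr7:68231759-68231787, plus strand: tggaagaagcatGGACcatatttGGACtt

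DMSO MCE also had an Igf1r peak of 175 bases over the stop codon (rank 3356 of 5128). Rhein MCE had a coding peak of 50 bases in exon 2, over codons 115 to 131, in the part that encodes the extracellular domain (rank 2839 of 3069). It is shown as 1 of the 2 receptor sites that were in the rhein list alone, and it lay near the lower end of that list.
Igf1r coding peak, chr7:68004059-68004108, plus strand: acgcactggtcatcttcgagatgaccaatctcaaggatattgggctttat

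Insr, the insulin receptor, had low-ranked peaks in the 3 DMSO lists and 0 in the rhein lists (chromosome 8, 3122061 to 3279617, minus strand). They clustered in the last exon, where the C-terminal tail of the receptor is encoded. DMSO Pre had a peak over codons 1306 to 1372 with a score of 5.76 (rank 2158 of 2824), DMSO MCE had one over codons 1331 to 1364 with a score of 6.05 (rank 4008 of 5128) and DMSO Diff had one over the stop codon with a score of 6.26 (rank 2318 of 2944). The DMSO MCE peak lay inside the DMSO Pre peak, and the DMSO Diff peak began at the next base after it. DMSO MCE had a further peak of 75 bases in the 3′ UTR (rank 4923). The coding peak of DMSO MCE is shown because it marks the part of the site with GGAC motifs.
Insr coding peak, chr8:3155697-3155796, minus strand: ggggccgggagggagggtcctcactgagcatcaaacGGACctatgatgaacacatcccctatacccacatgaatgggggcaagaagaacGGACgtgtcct

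**Figure D2:**
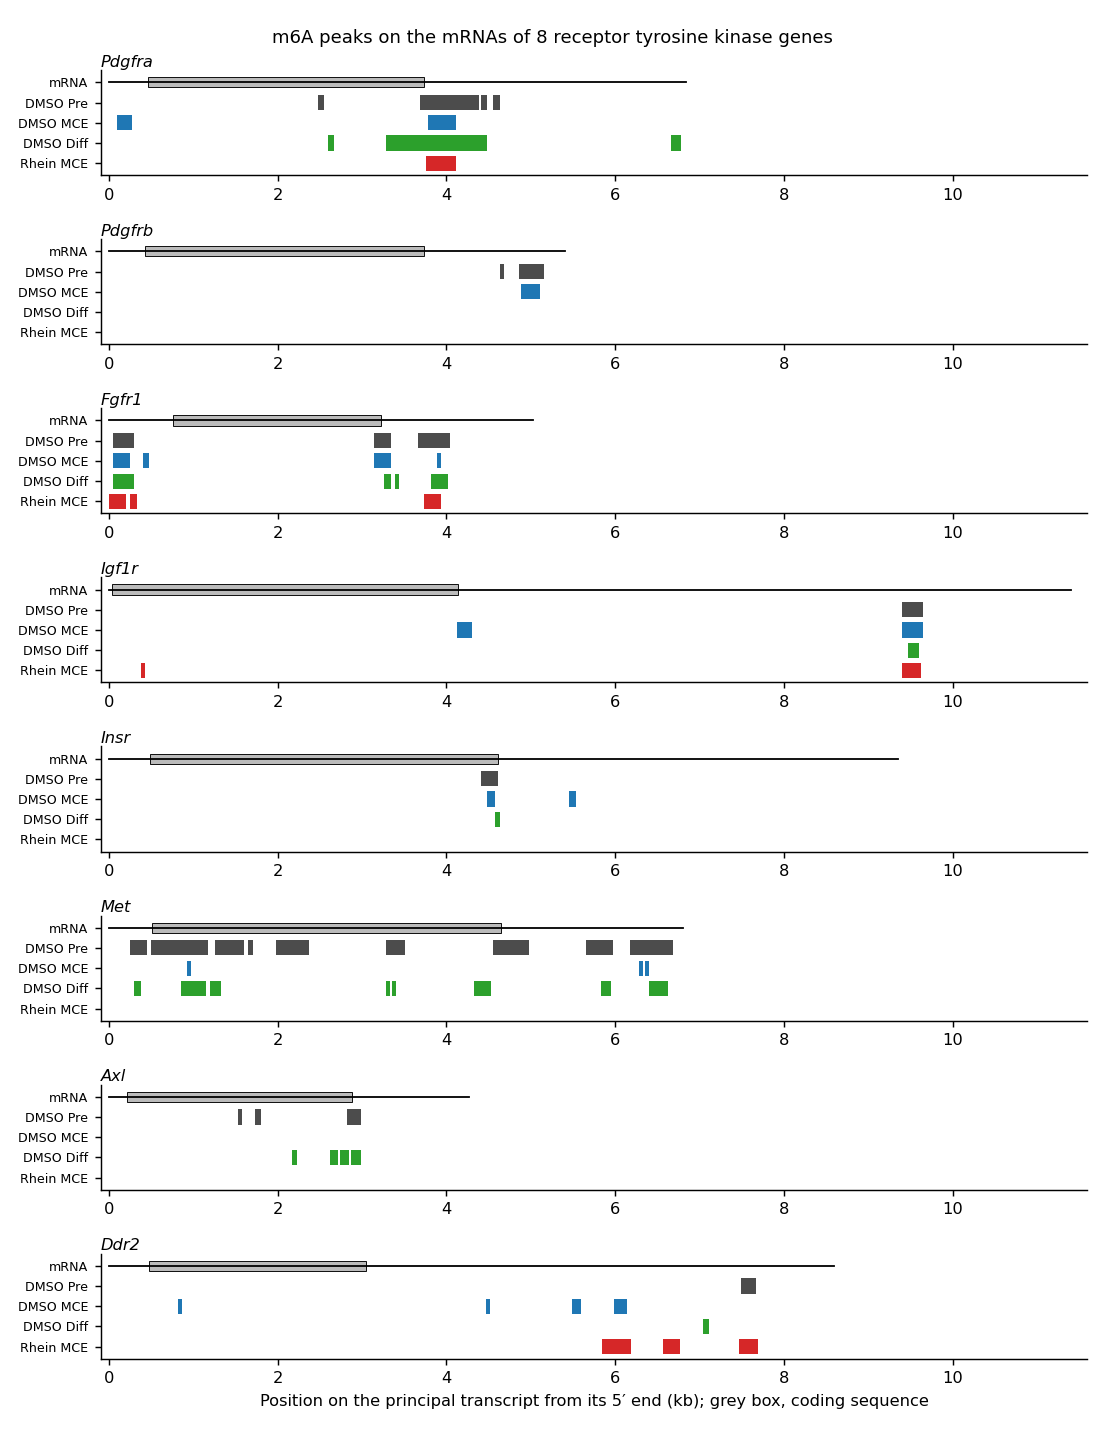
Position of receptor peaks on the principal transcript of each gene, in kb from the 5′ end (x axis), with 1 row per peak list. The grey box is the coding sequence, coloured boxes are peaks, and 73 of the 77 peaks are drawn, since 4 did not lie on the principal transcript. Met peaks lay in the 5′ UTR, the coding sequence and the 3′ UTR in DMSO Pre and DMSO Diff, and the distal Igf1r peaks lined up in all 4 lists.

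Met, the receptor for hepatocyte growth factor, had the most peaks of the 10 genes, with 10 at day 0, 3 at day 3, 9 at day 10 and 0 after rhein (chromosome 6, 17463800 to 17573980, plus strand). Of a mRNA of 6809 bases they covered 3325 exonic bases at day 0, 150 at day 3 and 1200 at day 10. In DMSO Pre 3 of 1544 protein-coding genes with a peak had more peaks than Met, and in DMSO Diff 8 of 1508 did. The peaks of Met were long and high in rank in DMSO Pre, at ranks 53 and 67 of 2824 in the 3′ UTR and at rank 104 in exon 3. In DMSO Diff the same parts of the mRNA ranked lower, and the best peak of the gene was at rank 464 of 2944. In DMSO MCE all 3 peaks were 50 bases long and ranked 4169 or lower of 5128.

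Exon 3 of Met, which encodes the first part of the extracellular domain, held peaks in all 3 DMSO lists. DMSO Pre had 3 peaks there, over codons 1 to 221 (rank 172 of 2824), 247 to 363 (rank 104) and 380 to 396 (rank 1803). DMSO Diff had peaks over codons 113 to 213 (rank 808 of 2944) and 230 to 271 (rank 1030), and DMSO MCE had 1 over codons 138 to 155 (rank 4759 of 5128). The DMSO MCE peak was the stretch of exon 3 common to the 3 lists, and it held 1 GGAC.
Met coding peak, chr6:17491654-17491703, plus strand: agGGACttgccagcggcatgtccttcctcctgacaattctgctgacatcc

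Exons 14 and 15 of Met held a peak in DMSO Pre (codons 923 to 998, rank 331 of 2824) and 2 short peaks in DMSO Diff (codons 923 to 940 and 948 to 965, ranks 464 and 562 of 2944), which were the best and the third-best of the gene in that list. DMSO MCE had 0 peaks there. These 3 peaks held neither GGAC nor a DRACH match. The first of the DMSO Diff peaks is shown for that reason.
Met coding peak, chr6:17548727-17548776, plus strand: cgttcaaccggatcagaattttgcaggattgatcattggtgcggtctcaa

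In the 3′ UTR of Met, the distal site spanned 17573352 to 17573851 with a score of 40.2 at day 0 (rank 53), 5.54 and 5.93 for its 2 short peaks at day 3 (ranks 4507 and 4169) and 12.9 at day 10 (rank 495). The day 3 peaks lay inside the day 0 peak but did not overlap the day 10 peak, which began at 17573577. The site before this distal site spanned 17572827 to 17573151, with a score of 34.4 at day 0 (rank 67) and 9.67 at day 10 (rank 993). The 125 bases common to DMSO Pre and DMSO Diff held 3 GGAC motifs, 2 of them separated by 1 base.
Met 3′ UTR, chr6:17573091-17573119, plus strand: aatagttactctGGACaGGACttttgaca

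The other Met peaks of DMSO Pre lay in the 5′ UTR (rank 1299), over exons 5 to 8 (rank 302), over exons that no annotated transcript joins (rank 831) and over the stop codon (rank 114). Those of DMSO Diff lay in the 5′ UTR (rank 2889), on a noncoding transcript (rank 2803) and over exons 21 and 22 (rank 2926). Of the 11 Met sites, 5 were in DMSO Pre and DMSO Diff but not in DMSO MCE, and 0 were in Rhein MCE.

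Axl, the receptor for Gas6, had peaks in DMSO Pre and DMSO Diff and none in the other lists (chromosome 7, 25757273 to 25788705, minus strand). DMSO Pre had 3, with scores of 4.31, 7.75 and 7.59 (ranks 2783, 1438 and 1469 of 2824). DMSO Diff had 4, with scores of 5.05, 8.34, 8.82 and 6.33 (ranks 2762, 1438, 1255 and 2287 of 2944). All ranked in the middle or lower part of their lists. The peak over the stop codon was common to both lists, with 1 end at 25758548 in each. A coding peak of DMSO Diff covered codons 656 to 672 and included the catalytic loop of the kinase, with 1 GGAC within the loop.
Axl coding peak, chr7:25763287-25763336, minus strand: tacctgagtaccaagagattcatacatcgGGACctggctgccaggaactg

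A DMSO Diff peak just before the stop codon, over codons 844 to 877, held 2 GGAC motifs. It overlapped the DMSO Pre peak and is shown as the Axl stretch with the best score in DMSO Diff.
Axl coding peak, chr7:25758698-25758797, minus strand: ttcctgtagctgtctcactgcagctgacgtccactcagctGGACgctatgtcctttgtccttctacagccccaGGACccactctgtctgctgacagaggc

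Ddr2, a receptor for fibrillar collagen, had 3 of the 9 receptor peaks in the rhein list, as many as Fgfr1 (chromosome 1, 169972307 to 170110762, minus strand). It had 1 peak at day 0, 4 at day 3, 1 at day 10 and 3 after rhein, and 8 of these 9 lay in the 3′ UTR of 5548 bases. The rhein peaks had scores of 10.7, 7.53 and 16.96 (ranks 831, 1786 and 409 of 3069). The best of them, 350 bases from 169974707 to 169975056, enclosed a DMSO MCE peak of 150 bases with a score of 8.54 (rank 1448 of 5128). A distal rhein peak, with its midpoint 4536 bases past the stop codon, enclosed the only DMSO Pre peak (score 9.95, rank 913 of 2824) and shared its midpoint. The DMSO Diff peak (score 9.37, rank 1089 of 2944) overlapped none of the others. The remaining DMSO MCE peaks ranked 1763, 4253 and 5090 of 5128, the last in exon 5 over codons 113 to 130. No Ddr2 peak of DMSO MCE held GGAC, while the site common to DMSO Pre and Rhein MCE held 2.
Ddr2 3′ UTR, chr1:169973364-169973392, minus strand: caaacaatccaaGGACaacttaagaaaag
Ddr2 3′ UTR, chr1:169973297-169973325, minus strand: aacagaagaacgGGACttttgttggtgac

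Ephb4, the receptor for ephrin-B2, had 0 peaks in all 5 lists and its symbol was in none (chromosome 5, 137350109 to 137378669, plus strand). With 4340 bases its mRNA was close in length to that of Axl (4265 bases), which had 7 peaks in the 4 lists.

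Considered together, 41 of the 77 receptor peaks had their midpoint in the 3′ UTR, 23 in the coding sequence and 10 in the 5′ UTR, while 3 lay on no coding transcript. Of all 11892 peaks placed on coding transcripts in the 4 lists, 39.7% were in the 3′ UTR, 53.5% in the coding sequence and 6.74% in the 5′ UTR. Within 200 bases of the stop codon lay 14 receptor peaks, or 14 of 77, compared with 23.2% of all placed peaks. Coding peaks came mainly from Met (11) and Axl (5), and 5′ UTR peaks from Fgfr1 (6), Met (2) and Pdgfra (2). Pdgfrb had 3′ UTR peaks alone. Exonic length ran from 50 to 1200 bases, with a median of 200 at day 0, 100 at day 3, 112.5 at day 10 and 200 after rhein.

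Scores placed the receptor peaks differently in each list. Rank is given as a percentage of the list, so that the median of all peaks is at 50%. The median receptor peak was at 28.8% at day 0, 70.4% at day 3 and 56.5% at day 10 under DMSO, and at 28.8% after rhein. In the top 10% of the list were 9 of 26 receptor peaks at day 0 (5 of them in Met), 4 of 18 at day 3, 0 of 24 at day 10 and 2 of 9 after rhein. The 4 in DMSO MCE were in Pdgfra, Fgfr1 and Igf1r, and both in Rhein MCE were in the 5′ UTR of Fgfr1.

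**Figure D3:**
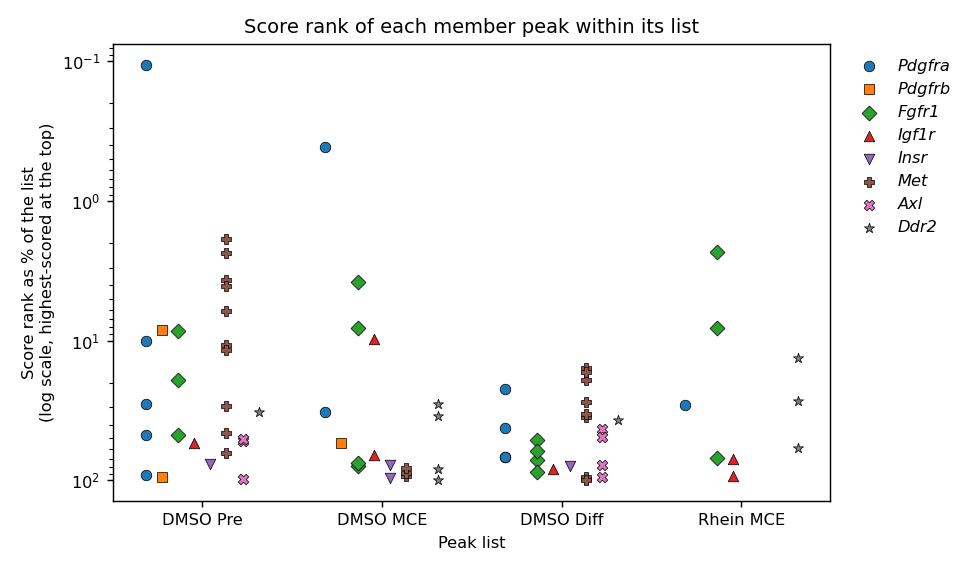
Score rank of every receptor peak as a percentage of its list (y axis, log scale, highest-scored at the top), by peak list (x axis). Each point is 1 peak, and its shape and colour give the gene. Pdgfra stood highest in DMSO Pre (rank 3) and DMSO MCE (rank 21), Fgfr1 stood highest in Rhein MCE (rank 71), and no DMSO Diff peak reached the top 10%.

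GGAC was searched on the transcript strand of the exonic sequence, on which it cannot overlap itself. It was present in 41 of the 77 peaks (53.2%), while listed peaks of the same exonic lengths held it in 57.2% on average. Among peaks of at most 75 bases it was in 8 of 28, beside 25.9% of all such peaks. For 76 to 175 bases it was in 9 of 16, beside 50.8%, and for longer peaks in 24 of 33, beside 81.2%. A DRACH match, which includes many of the GGAC occurrences, was in 69 of 77, beside 87.0% of all placed peaks. A peak without the motif says only that these letters are not in the window.

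Overlap of receptor peaks was largest between DMSO Pre and DMSO Diff. Of the 26 DMSO Pre peaks, 16 (61.5%) shared at least 1 exonic base with a DMSO Diff peak, and 17 of 24 (70.8%) did in the other direction, while all peaks did so in 38.2% and 36.1%. Between DMSO Pre and DMSO MCE the counts were 9 of 26 (34.6%) and 10 of 18 (55.6%), beside 44.8% and 24.8% of all peaks. Between DMSO MCE and DMSO Diff they were 6 of 18 (33.3%) and 6 of 24 (25%), beside 26.0% and 45.8%. Joined where they overlapped, the 77 peaks formed 42 sites. Of these, 24 were in 1 list, 10 in 2, 4 in 3 and 4 in all 4 lists, namely the 3′ UTR sites of Pdgfra and Igf1r and the 5′ UTR and distal 3′ UTR sites of Fgfr1. Peaks of other genes were not joined into sites, so these counts have no share over all peaks beside them and show no trait of the receptors. Of the 7 sites in DMSO Pre and DMSO Diff but not in DMSO MCE, 5 were in Met. Sites of this kind were thus mainly in 1 gene, while the overlap of DMSO Pre and DMSO Diff given above also includes peaks of Pdgfra, Fgfr1, Igf1r, Insr and Axl. Peaks were joined in chains. The Insr coding site and the distal Met site, each in 3 lists, had 0 bases common to those lists.

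Compared with DMSO at the MCE stage, with the day of the rhein cells uncertain as given above, the rhein list lacked the peaks of Pdgfrb (1 in DMSO MCE), Insr (2) and Met (3). The other 4 genes with a peak in DMSO MCE also had one after rhein. The DMSO MCE list was longer, with 5128 peaks against 3069. Its Insr and Met peaks ranked 4008 or lower, beyond the length of the rhein list. With each list cut to its 2824 highest-scored peaks, 5 receptor genes had a peak in DMSO MCE, none of them Insr or Met, and 4 in Rhein MCE. Of the DMSO MCE peaks 5 of 18 (27.8%) overlapped a Rhein MCE peak, beside 32.0% of all peaks, and 5 of 9 (55.6%) did in the other direction, beside 53.3%. At these shared places the ranks moved in both directions. The Pdgfra 3′ UTR went from 0.410% of the list in DMSO MCE to 28.8% after rhein, the distal Fgfr1 3′ UTR site from 8.17% to 69.4% and the Igf1r 3′ UTR from 9.79% to 70.2%. The Fgfr1 5′ UTR went from 3.78% to 2.31% and the Ddr2 3′ UTR from 28.2% to 13.3%. Rank depends on the other peaks of a list, and with 1 pair of libraries per condition the size of such shifts between replicates is unknown.

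Compared with DMSO at the Diff stage, under the same uncertainty, the rhein list lacked the peaks of Insr (1), Met (9) and Axl (4). Of the DMSO Diff peaks 4 of 24 (16.7%) overlapped a Rhein Diff peak, beside 40.1% of all peaks, and 5 of 9 (55.6%) did in the other direction, beside 37.6%. The overlaps were in Pdgfra, Fgfr1 and Igf1r.

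Other genes of the pathway were counted from lists of receptors, ligands, effectors and inhibitors. Over all protein-coding genes, a peak was found at day 0 for 7.03%, at day 3 for 12.7%, at day 10 for 6.87% and after rhein for 7.62%. In each of the 4 peak lists the share was below this for the other receptors and above it for ligands, adaptors and effectors, and inhibitors. These gene lists were also chosen with earlier results known, so this is a scale and not a test. Of 47 other receptor tyrosine kinases, 2 had a peak at day 0, 4 at day 3, 1 at day 10 and 1 after rhein. The collagen receptor Ddr1 was the only one of them in all 4 lists, as Pdgfra, Fgfr1, Igf1r and its relative Ddr2 were. The best ranks of Ddr1 were 179 of 2824, 1450 of 5128, 305 of 2944 and 1057 of 3069. Ryk, a Wnt co-receptor, had the presence pattern of Pdgfrb, in DMSO Pre (rank 38) and DMSO MCE (rank 1185) but in neither DMSO Diff nor Rhein MCE. Likeness here is the number of lists, of 4, in which both genes had or both lacked a peak.

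Of 24 ligand genes, 6 had a peak at day 0, 7 at day 3, 5 at day 10 and 3 after rhein. Fgf7 and the Ephb4 ligand Efnb2 were in all 4 lists, and the best-ranked ligand peak was in the 3′ UTR of Col1a2, a chain of the collagen that Ddr2 binds, at rank 10 of 2824 in DMSO Pre. Named after their values were seen, the ligands of Axl and Met had patterns of their own: Gas6 had 4, 1, 4 and 0 peaks in DMSO Pre, DMSO MCE, DMSO Diff and Rhein MCE, and Hgf had 0, 4, 0 and 0. Axl had 3, 0, 4 and 0 and Met 10, 3, 9 and 0 in the same order.

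Of 26 adaptors and effectors, 10 had a peak at day 0, 12 at day 3, 8 at day 10 and 10 after rhein. The kinases Src and Akt1, the PI3K subunit Pik3r1 and the RAS regulator Nf1 were in all 4 lists, and the best-ranked peak was in Irs2, a substrate of the insulin and IGF1 receptors, at rank 34 of 3069 in Rhein MCE. Of 25 inhibitors, 6 had one at day 0, 11 at day 3, 5 at day 10 and 9 after rhein. The MAPK phosphatase Dusp1 and the IGF-binding protein Igfbp4 were among those in all 4 lists, and Igfbp4 had the best-ranked peak, at rank 5 of 3069 in Rhein MCE.

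**Figure D4:**
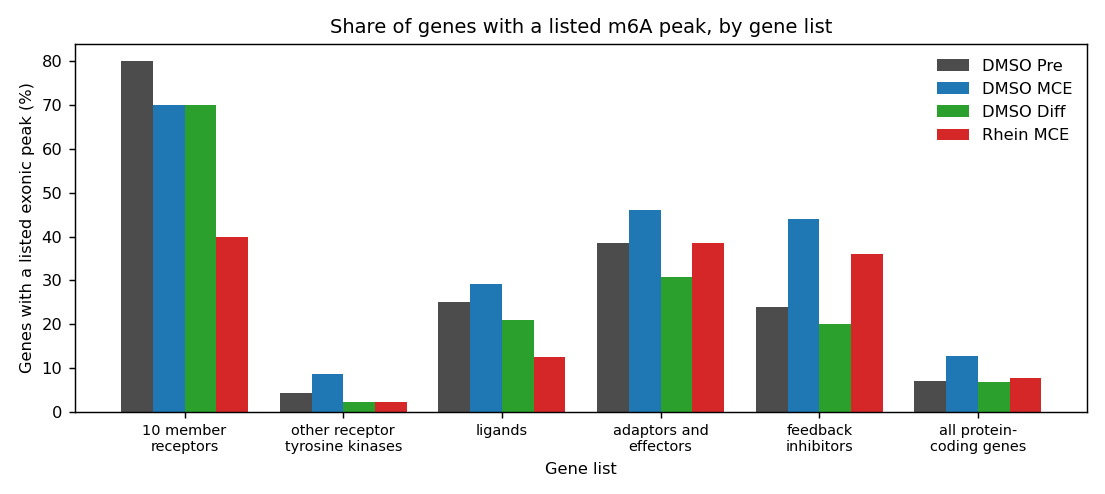
Share of genes with at least 1 listed exonic peak (y axis, %), for 5 gene lists and all protein-coding genes (x axis), with 1 bar per peak list. The bar was lowest in Rhein MCE for the member receptors (4 of 10) and the ligands (3 of 24). For the other receptors it was lowest in DMSO Diff and Rhein MCE alike (1 of 47). For adaptors and effectors Rhein MCE matched DMSO Pre (10 of 26), and for inhibitors it was above DMSO Pre (9 against 6 of 25).

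The gene symbols given with the peaks often named a neighbouring gene. Of the 77 receptor peaks, 52 were listed under the receptor's own symbol and 25 under another gene: 9 Pdgfra peaks under Mir7025, all 3 Pdgfrb peaks under Csf1r, 4 Axl peaks under Hnrnpul1 and all 9 Ddr2 peaks under 3110045C21Rik. None of the 77 peaks overlapped an exon of another annotated gene on either strand.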

How the data were processed

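MeRIP-seq of 10 libraries gave 5 peak lists. The authors trimmed reads with Trim Galore (0.6.5), aligned them to mm10 with HISAT2 (2.1.0), removed duplicates with Picard (2.23.5) and reads of mapping quality below 30 with SAMtools (1.9), called peaks with exomePeak2 and annotated them with ChIPseeker (1.26). The deposited column headed as a log2 fold change ran from 4.19 to 735 and was used as a score for ranks within a list. Which libraries entered each list is not given in the sources used here, and lists were matched to conditions by name. Peaks were placed on GENCODE M21 exons of GRCm38 by strand, principal transcript first. Of the 77 receptor peaks, 75 lay on 1 transcript, each with an exonic length in steps of 25 bases, and 2 were kept for their exonic bases. Sequences came from RefSeq GRCm38. Placement was tested on simulated peaks. All receptors were named, and other pathway genes when present in all 4 distinct lists, best-ranked in their list, or alike in pattern, except for an item that is not reported here. The members and lists were chosen with earlier results of these data known. Alternatives covered gene assignment, score thresholds, list length, overlap, position and motif window. Python 3.11.15, NumPy 2.4.6, pandas 2.3.3, SciPy 1.17.1, Matplotlib 3.10.9 and SAMtools 1.23.1 were used.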

Additional observations from a re-analysis of the deposited data

Results flagged for a closer look

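Ddr2 was the only one of the 10 receptors whose number of peaks differed between rhein and DMSO in opposite directions at the 2 stages. Rhein MCE minus DMSO MCE gave -1 (3 against 4 peaks), and Rhein Diff minus DMSO Diff gave 2 (3 against 1 peak). The difference was not tested, each value rests on 1 pair of libraries, and the rhein side is the same list at both stages.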

How the results depend on the processing

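No paired analysis was possible because each condition had 1 IP and 1 input library and no result came from a test, and for the same reason no replicate could be left out. Of 104 alternative values, 73 stayed within 1.5 times the reported count or rank and 31 did not. This tally does not measure robustness, since some values could hardly move. Among the 73, 9 set ranks of the near-identical rhein lists side by side. Ignoring strand, or counting any exonic base in the span, changed none of 8 values each. At each score threshold 0 of 8 values stayed, and with identical ends 0 of 10. Requiring an adjusted p-value below 1e-5, with the score read as its minus log2, left 9 receptor peaks in 4 genes at day 0, 2 in 2 genes at day 3, 0 in 0 genes at day 10 and 3 in 2 genes after rhein, where these lists kept 299, 303, 316 and 426 peaks in all. Below 1e-10 these were 3 in 2 genes, 1 in 1 gene, 0 in 0 genes and 1 in 1 gene, of 68, 96, 102 and 151 peaks kept. Lists of equal length (2824 peaks) left 8 receptor peaks in DMSO MCE instead of 18, and 5 instead of 9 DMSO Pre peaks and 5 instead of 10 DMSO MCE peaks shared between these lists. Identical start and end left 2 shared peaks between DMSO Pre and DMSO MCE, 1 between DMSO Pre and DMSO Diff, and 0 for DMSO MCE with DMSO Diff and for either rhein comparison. Leaving out Met, which was chosen after seeing the data, gave 16 peaks in DMSO Pre and 15 in DMSO Diff. Assigning peaks by listed symbol gave 18 at day 0, 13 at day 3, 18 at day 10 and 6 after rhein. The last 3 counts include the peak of Gm25698 listed under Egfr, and receptor peaks under their own symbol were 18, 12, 17 and 5. Placement on the longest coding transcript, also added after seeing the data, left 41 peaks in the 3′ UTR. These thresholds remove peaks by construction, and the depth that limits each list is unknown.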
